A study of Arabidopsis thaliana with 4 samples.

Results

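The 5 genes AT4G15660, AT4G15670, AT4G15680, AT4G15690 and AT4G15700 form a tandem cluster of CC-type glutaredoxin genes on chromosome 4 of Arabidopsis thaliana. They were taken by locus, as the probe sets that the platform's gene table assigns to each of them. Of the 5 genes, 4 had a probe set, 1 each (245504_at for AT4G15660, 245392_at for AT4G15680, 245505_at for AT4G15690 and 245506_at for AT4G15700), among 13436 probe sets that could be matched to 1 locus. AT4G15670 had none in that table and was not analysed here. The cluster was chosen by measured values, the higher signals of AT4G15680 and AT4G15700 in the overexpressing line on these same arrays, so the genotype differences of its members are given as a description, with no test. RNA came from rosette leaves of 3-week-old plants kept in 16 h of light and 8 h of dark. The genotypes were Col-0, the wild type, and AAF-OX, a transgenic line in that background that overexpresses AAF, a senescence-associated gene. The promoter of the transgene and the number of lines are not given in the sources used here. Each genotype was measured on 2 Affymetrix arrays, and the study ran its arrays as 2 independent sets, called set 1 and set 2 here after the replicate numbers and taken to hold 1 array of each genotype.

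Glutaredoxins are small proteins of the thioredoxin fold that use glutathione to reduce disulfides or to remove glutathione from other proteins. The CC-type class, named for neighbouring cysteines in the active site, is found in land plants, and its best studied members bind TGA transcription factors, through which they act on flower development and on defence genes of the jasmonate and ethylene pathway. The chromosome 4 genes are known as genes induced by nitrate, and plants with lowered expression of the group grow longer primary roots. These roles are background and were not measured here. Values are MAS5 signals, a linear measure of probe set brightness, and differences are given on the scale of log2(signal + 50).

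The transgene's own gene, AAF, taken here as AT1G66330, read 760 and 1337 on the Col-0 arrays and 7442 and 7706 on the AAF-OX arrays of sets 1 and 2, so the labels of the genotypes hold in both sets. Across tested probe sets, log2 signals correlated at 0.982 and 0.979 between the arrays of the same set and at 0.895 to 0.908 between arrays of different sets. Of 8 leaf markers, 3 had a named probe set (LHCB4.1, LHCB4.2 and RCA), and their signals ran from 13590 to 31590. Of 6 root markers 3 were measured. The root hair gene EXPA7 was between 4.63 and 49.4, whereas PYK10, a beta-glucosidase of endoplasmic reticulum bodies, was between 629 and 1974. NAI2, the other root marker measured, read 340 and 312 in Col-0 and 210 and 192 in AAF-OX. PYK10 and NAI2 were lower in AAF-OX in both sets, and EXPA7 was higher in both. The summed signal of these 3 root genes was 1420 and 2293 in Col-0 and 859 and 1768 in AAF-OX. Most of that sum was PYK10, so it does not describe EXPA7. The part of these genes in the results below was not tested. No named probe set was found for the flower and seed markers. In these leaf samples, fewer cells that express a gene and less RNA per cell cannot be told apart.

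AT4G15680, in the middle of the cluster, differed most between the genotypes. Its signal was 96.6 in Col-0 and 189 in AAF-OX in set 1, and 117 in Col-0 and 565 in AAF-OX in set 2. Both AAF-OX arrays were above both Col-0 arrays, and the Col-0 arrays lay close to each other while the AAF-OX arrays lay far apart. Col-0 averaged 107 ± 14.5 and AAF-OX 377 ± 266 (SD, n = 2). AAF-OX was 1.95 times Col-0 in set 1 and 4.82 times Col-0 in set 2, which on the scale of log2(signal + 50) are differences of 0.70 and 1.88, with a mean of 1.29. A signal of about 100 is weak on these arrays, where 30.1% to 31.4% of values are under 50, and the added 50 lowers the difference. With 1 in place of 50 the mean difference was 1.61.

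AT4G15700, the last gene of the cluster, was the other gene with groups that did not overlap, and its difference was nearly the same in both sets. It read 263 in Col-0 and 428 in AAF-OX in set 1, and 310 and 546 in set 2. The group means were 286 ± 33.3 and 487 ± 83.3 (SD, n = 2), and AAF-OX was 1.63 and 1.76 times Col-0 in sets 1 and 2 (log2 differences of 0.61 and 0.73).

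AT4G15690, which lies between these genes, was higher in AAF-OX in both sets, by unequal amounts. It read 234 in Col-0 and 270.1 in AAF-OX in set 1, and 367 and 637 in set 2. The AAF-OX array of set 1 was below the Col-0 array of set 2, so the groups overlapped (Col-0 300.4 ± 93.5, AAF-OX 454 ± 260, SD, n = 2). Its ratio was 1.15 in set 1 and 1.74 in set 2.

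AT4G15660, the first gene of the cluster, had no common direction. It was lower in AAF-OX in set 1 (470.0 in Col-0 and 311 in AAF-OX) and higher in AAF-OX in set 2 (617 and 761). The log2 differences were -0.52 and 0.28, and the group means, 544 ± 104 and 536 ± 318 (SD, n = 2), lay closer together than the arrays of either group.

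**Figure D1:**
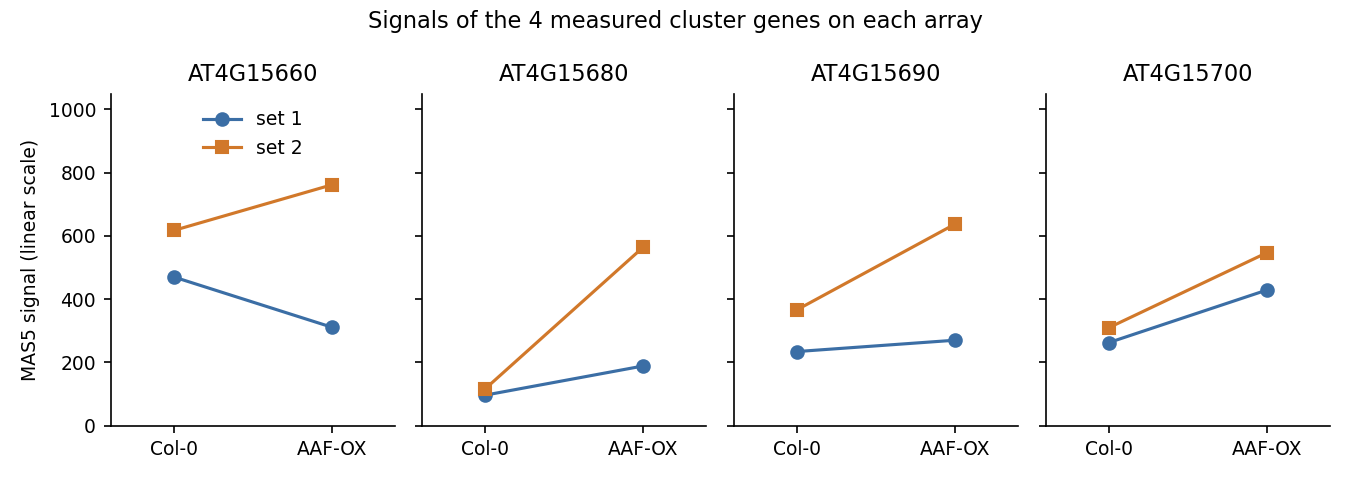
MAS5 signal (linear y axis from 0) of the 4 measured cluster genes on each array, with 1 point per array and a line joining the Col-0 and AAF-OX arrays of the same set. AT4G15680 and AT4G15700 have both AAF-OX points above both Col-0 points, AT4G15660 is lower in AAF-OX in set 1 and higher in set 2, and the AAF-OX array of set 2 is the highest for every gene.

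The cluster was therefore not uniform between the genotypes. In 2 of the 4 measured genes both AAF-OX arrays were above both Col-0 arrays, as were 7.86% of the 13592 probe sets tested. These share the contrast that chose the cluster, so nothing is read from that count. Probe sets were tested if their mean signal over the 4 arrays was at least 100, and all 4 genes passed this. By their mean log2 difference between genotypes, AT4G15680, AT4G15700, AT4G15690 and AT4G15660 stood at the 99.9, 98.9, 96.0 and 27.1 percentiles of all tested probe sets. The median of the 4 was 0.56, and that of all tested probe sets was -0.02. AT4G15680 and AT4G15700 were chosen by this difference. Their percentiles and the median are therefore a description, and nothing is read from them.

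The difference between sets was not used to choose the genes and was tested, on the same arrays. A high value on the AAF-OX array of set 2 raises both this difference and the genotype difference. The set call of AT4G15680 is therefore not fully separate from its choice. With genotype in the model, 3 of the 4 genes were higher in set 2 (limma, adjusted p under 0.05 over all tested probe sets), where 17.3% of all tested probe sets were higher and 39.4% differed in either direction. A change between sets is thus common on these arrays. AT4G15660 differed by a log2 of 0.76 ± 0.18 (SE; adjusted p = 0.00524) and AT4G15690 by 0.83 ± 0.17 (adjusted p = 0.00202), and in both genes the set 2 arrays were above the set 1 arrays, a separation seen in 29.8% of tested probe sets. AT4G15680 differed by 0.78 ± 0.24 (adjusted p = 0.024) with overlapping sets. AT4G15700 had 0.26 ± 0.14 and did not pass (adjusted p = 0.175). These are limma's moderated SEs, which rest mostly on other probe sets (1 residual degree of freedom, 10.7 borrowed). The model takes the set difference as equal in both genotypes. In the 3 called genes it was not, with gaps of 1.17 (AT4G15680), 0.81 (AT4G15660) and 0.55 (AT4G15690) on the log2 scale. The SEs and p-values therefore understate the spread of these genes.

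These set differences were not equally large in the genotypes. Between the Col-0 arrays, set 2 exceeded set 1 by log2 differences of 0.36 in AT4G15660, 0.19 in AT4G15680, 0.55 in AT4G15690 and 0.20 in AT4G15700. Between the AAF-OX arrays the corresponding differences were 1.17, 1.36, 1.1 and 0.32. For AT4G15680 the set difference rests on the AAF-OX array of set 2, since without that array it was -0.16 (adjusted p = 0.746). Without the same array AT4G15660 and AT4G15690 kept their direction but not their call (0.62 and 0.47, adjusted p = 0.0796 and 0.108). The number of cluster genes called between sets was 3 without the Col-0 array of set 2, 1 without the Col-0 array of set 1, and 0 without either AAF-OX array. Without the AAF-OX array of set 1 the differences were 0.50 in AT4G15660, 1.13 in AT4G15680 and 0.91 in AT4G15690, so the last 2 were no smaller than with all arrays (adjusted p = 0.134, 0.215 and 0.0572). These fits on 3 arrays leave genotype out of the model and have 1 array in one of the sets.

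**Figure D2:**
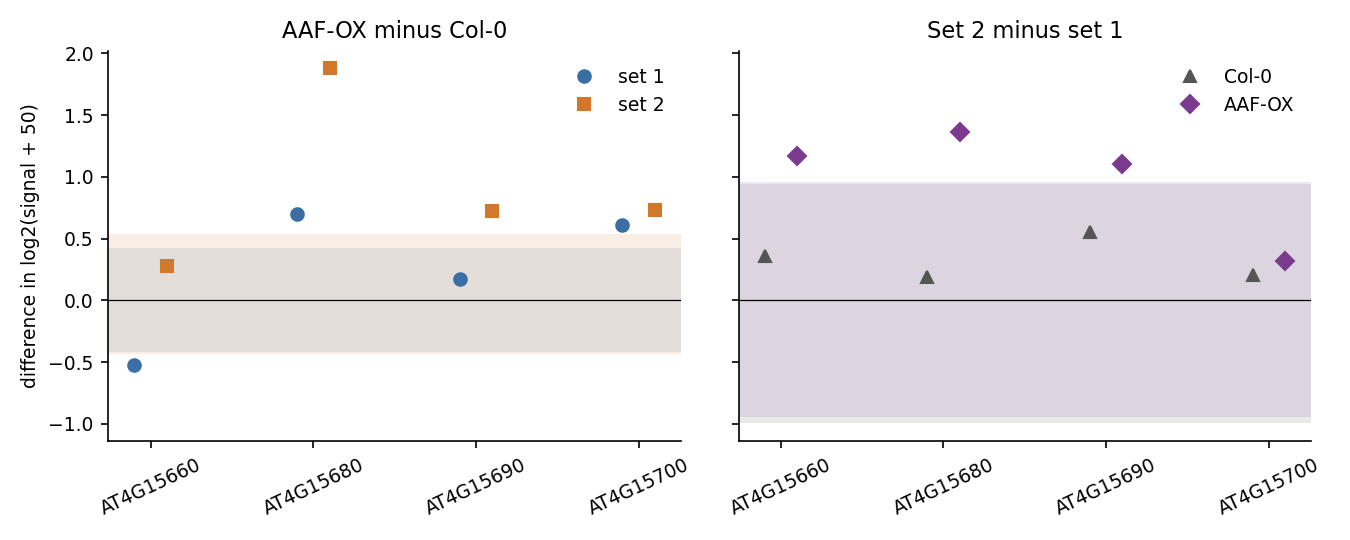
Differences in log2(signal + 50) for the 4 cluster genes. The left panel gives AAF-OX minus Col-0 in each set and the right panel set 2 minus set 1 in each genotype, and the shaded bands span the 5th to 95th percentiles of all tested probe sets. In both sets AT4G15680 and AT4G15700 lie above the band on the left, as AT4G15690 does in set 2, while AT4G15660 lies below it in set 1 (-0.52). AT4G15680 and AT4G15700 were chosen by the contrast of the left panel, so nothing is read from their place there. On the right the AAF-OX points of AT4G15660, AT4G15680 and AT4G15690 lie above it while all Col-0 points lie inside.

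All 4 genes had their highest signal on the AAF-OX array of set 2. How many of all tested probe sets did so was not counted, and AT4G15680 and AT4G15700 were chosen for higher AAF-OX signals. Nothing is therefore read from that count. In all 4 the genotype difference was more positive in set 2 than in set 1. The gap between the differences was 1.17 in AT4G15680, 0.81 in AT4G15660, 0.55 in AT4G15690 and 0.12 in AT4G15700, on the log2 scale. The first 2 of these stood at the 99.6 and 98.3 percentiles of all tested probe sets, and the others at 94.0 and 64.7. AT4G15680 was chosen for its higher AAF-OX signals, the larger of them in set 2, so its percentile partly reflects that choice. Over all tested probe sets, 50.4% had the more positive difference in set 2. With 1 array for each genotype and set, whether the genotype difference depended on the set could not be tested, and for these genes a property of that single array and an effect in set 2 cannot be told apart.

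The pattern over the 4 arrays was compared by the Euclidean distance between log2(signal + 50) profiles, each centred on its own mean. AT4G15690 lay closest to the mean profile of the 4 genes (distance 0.218), and AT4G15680 farthest (0.773). Between genes, AT4G15660 and AT4G15690 were the closest pair (0.586), followed by AT4G15690 and AT4G15700 (0.648), whereas AT4G15660 and AT4G15680 were the most distant (1.42). Measured from AT4G15680, AT4G15690 ranked 58 and AT4G15700 ranked 89 among the other 13591 tested probe sets, and AT4G15660 ranked 1614. In the other direction, AT4G15680 ranked 4013 from AT4G15690, 8734 from AT4G15700 and 11631 from AT4G15660. AT4G15680 and AT4G15700 were both chosen for higher signals in AAF-OX, so their likeness is partly set by that choice.

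The named genes outside the cluster with profiles closest to AT4G15680 were AT2G41250 (distance 0.615), AT1G06690 (0.658), AT1G06650 (0.671), the metallothionein gene MT1C (0.672), AT1G03610 (0.683) and AT1G03020 (0.698). AT1G03020 is itself a CC-type glutaredoxin gene. Of these 6 genes, 5 lie in a stretch at the start of chromosome 1, from AT1G01080 to AT1G11280, whose limits come from an earlier look at genotype differences on the same arrays. The stretch holds 309 of the 13592 tested probe sets. Of the 309, 61 were called higher in AAF-OX (limma with the sets as a block), where 1.34% of all tested probe sets were. The median log2 difference of the 309 was 0.44, where the median was -0.02 for all tested probe sets. AT4G15680 and the limits of the stretch were both chosen by genotype differences on these arrays. No count of genes in the stretch is therefore read as a result. Closest to the mean profile of the cluster genes were AT1G08390, AT1G24530, AT1G07700, AT2G07707, AT5G59450 and AT1G02150 (distances of 0.11 to 0.197), 3 of them in the same stretch. The distances rest on 4 arrays that share their set and genotype differences, and probe sets with no gene name lay among the closest.

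**Figure D3:**
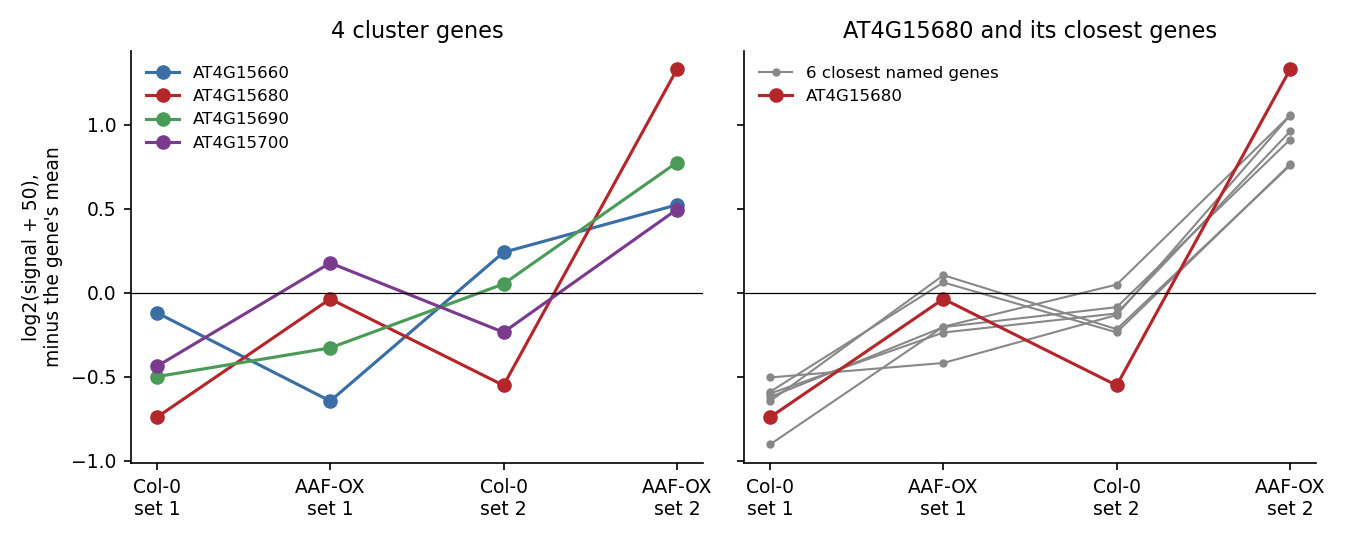
Profiles over the 4 arrays as log2(signal + 50) minus each gene's mean, for the 4 cluster genes (left) and for AT4G15680 with the 6 named genes closest to it (right). AT4G15660 alone of the cluster genes is lower in AAF-OX than in Col-0 in set 1, and on the right all lines peak on the AAF-OX array of set 2.

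The gene table lists the 5 cluster genes next to each other, with no other gene between them. No tested neighbour was called between the genotypes, but few genes close to the cluster were tested. The first tested gene after it was AT4G15770, 13 places along in the gene table. AT4G15650 and AT4G15590, before the cluster, and AT4G15710, AT4G15730 and AT4G15740, after it, had mean signals under 100 and were not tested. AT4G15640, before the cluster, read 245 and 254 in set 1 and 281 and 232 in set 2 (Col-0 first), with a log2 difference of -0.09 (limma, adjusted p = 0.917). Among the 15 measured and named genes on each side, 17 were tested and 0 passed (limma with the sets as a block, smallest adjusted p = 0.186), where 1.55% of all tested probe sets did. At that share, 0 of 17 says little about the region. The log2 differences of the 17 ran from -0.29 to 0.55, with a median of -0.01, and the highest was that of PPDK, pyruvate orthophosphate dikinase.

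**Figure D4:**
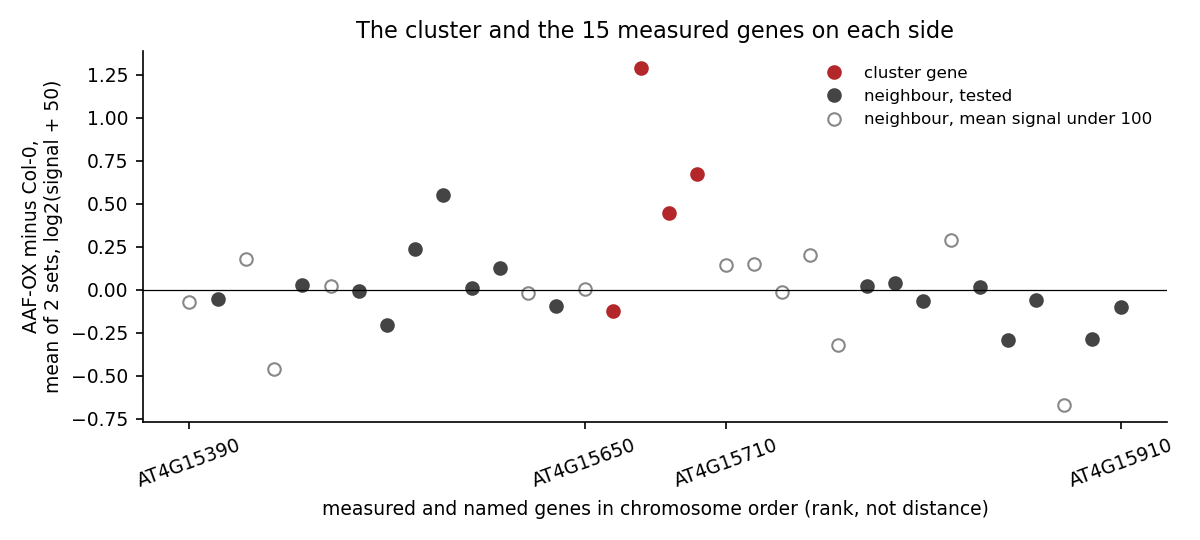
AAF-OX minus Col-0 as the mean difference of both sets in log2(signal + 50), for the 4 measured cluster genes and the 15 measured and named genes on each side, in chromosome order (x axis by rank, not distance). AT4G15680, at 1.29, and AT4G15700, at 0.67, stand above every tested neighbour, the highest of which is at 0.55. These 2 genes were chosen by this contrast, so nothing is read from their place. AT4G15690, at 0.45, and AT4G15660, at -0.12, lie below that highest neighbour. Open points are neighbours with a mean signal under 100.

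Elsewhere in the genome the CC-type class held 16 further genes, of which 13 had a named probe set and 9 were tested. With the sets as a block, 1 of the 9 was called between genotypes and it was higher in AAF-OX (limma; 1.34% of all tested probe sets were called higher), and their median log2 difference was 0.16. The called gene was AT1G06830, at 676 and 955 in set 1 and 1369.5 and 2528 in set 2 (Col-0 first), with a log2 difference of 0.66 ± 0.13 (SE; adjusted p = 0.0341). AT1G03020 had 0.85 ± 0.19 and did not pass (adjusted p = 0.0517). Both lie in the chromosome 1 stretch described above, and the part of that stretch in their values was not tested. The call of AT1G06830 was lost with a pseudocount of 1 (adjusted p = 0.0715), with no filter (0.186) and with no intensity trend (0.18), and its difference was -0.015 without the AAF-OX array of set 2. Without the block, limma called 0 of all tested probe sets (117 at an unadjusted p under 0.05), so AT1G06830 was not called there either. GRX480, a CC-type glutaredoxin that binds TGA factors and responds to salicylic acid, had 0.16 (adjusted p = 0.87). The floral regulators ROXY1 and ROXY2 had mean signals under 100 and were not tested, with highest signals of 77.6 and 65.7. Of the 9 tested genes, 7 had the more positive difference in set 2, as did 50.4% of all tested probe sets and 74.8% of those in the chromosome 1 stretch, which holds 2 of the 9.

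**Figure D5:**
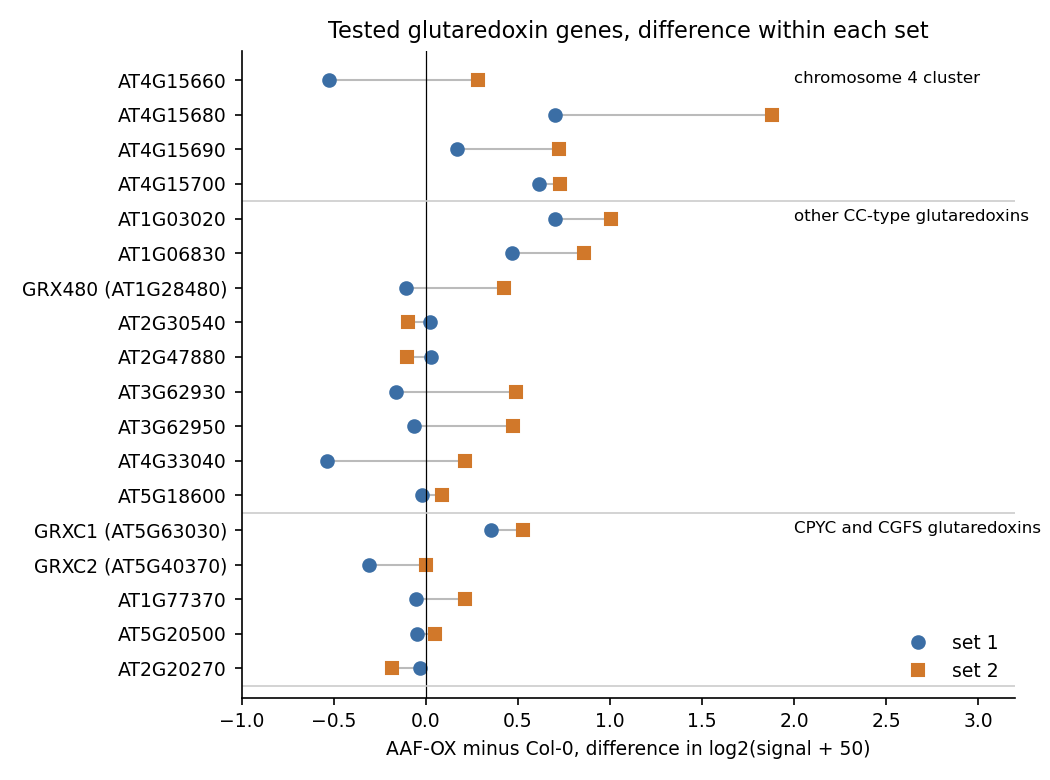
AAF-OX minus Col-0 in log2(signal + 50) within set 1 (circles) and set 2 (squares) for the tested glutaredoxin genes, by class. AT4G15680 in set 2, at 1.88, is the largest difference shown, and in the CC-type class outside the cluster only AT1G03020 and AT1G06830 lie clearly above 0 in both sets. AT4G15680 and AT4G15700 were chosen by this contrast, so nothing is read from their place.

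Between sets the other CC-type genes went both ways. Of the 9 other CC-type genes, 4 were higher and 3 lower in set 2 (limma with genotype in the model), where 17.3% of all tested probe sets were higher and 22.0% lower. AT3G62950 rose by a log2 of 1.65 ± 0.15 (SE; adjusted p = 6.6e-06) and AT1G06830 by 1.16 ± 0.13 (adjusted p = 3.28e-05), while GRX480 fell by 1.79 (adjusted p = 2.96e-05).

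Of the lists for pathways around these genes, few members had a named probe set. None of the 12 TGA factors and partners did. Of 24 nitrate response genes 2 were tested, AT1G68670 and AT1G25550. Neither was called between genotypes (log2 differences of 0.09 and -0.12), and both were higher in set 2, by 0.87 ± 0.13 and 0.69 ± 0.11 (SE; limma's adjusted p = 0.00028 and 0.000534), where 17.3% of all tested probe sets were called higher. The rest of that list had no named probe set. Of 21 genes of cytokinin signalling 2 were tested, the type-A response regulators ARR15 and RR16. They had -0.36 and -0.06 between genotypes (adjusted p = 0.656 and 0.941), and between sets ARR15 was higher in set 2 by 0.86 and RR16 lower by a difference of -2.23 (adjusted p = 0.0107 and 1.68e-07). The glutathione reductase genes GR1 and GR, whose products supply reduced glutathione to glutaredoxins, had -0.00364 and -0.20 between genotypes (adjusted p = 0.997 and 0.59). Between sets GR was higher in set 2 by 0.76 ± 0.11 (SE; limma's adjusted p = 0.000271), and GR1 had 0.05 (adjusted p = 0.756).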

How the data were processed

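The authors deposited linear intensity values, which the submitters' processing notes call MAS5 (no version given), with each array scaled so that its 2%-trimmed mean was 500.04 to 500.05. Detection calls and scanner files were not used here. With 2 arrays per genotype precision is low. No source says whether each set had its own plants, and the p-values describe the spread among these arrays, which may be technical.

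Control probe sets (64) were left out, signals were taken as log2(signal + 50), and a probe set was tested if it averaged 100 or more (13592 tested, 9154 left out). Among the 22746 probe sets that remain, 13513 had 1 gene in the platform's table, 503 had several and were not named, and 8730 had none. Of the 13513, 13436 got a locus through TAIR10.1 gene records, which were used for names and gene order only, since no build is named for the probes. Whether the probe sets of these similar genes also bind RNA of their neighbours or of AT4G15670 was not tested.

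The model held set and genotype together and was fitted with limma 3.58.1 (R 4.3.3), with variances moderated along signal level, two-sided p-values adjusted by Benjamini-Hochberg across tested probe sets and a threshold of 0.05 (1 residual degree of freedom, 10.7 borrowed). The series states 2 independent sets but does not say outright that the replicate numbers mark them. The pairing by replicate number was inferred from that statement. Deviations of same-numbered arrays from their group means correlated at 0.856. The fits were tested on simulated data. Other settings were a pseudocount of 1 or 100, dropping the filter or raising it to 250, arrays quantile-normalized or centred on their medians, a constant prior variance, no block or no genotype term, and leaving out each array in turn.

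The genes named are all cluster members, AAF, the 3 measured neighbours on each side, the 6 closest profiles by each of 2 references, and of each list the called members or those with the smallest p. The other CC-type genes with values, PPDK and the markers were added after their values were seen. The set contrast of the lists was added too. The members and all lists were chosen with earlier results of these data known.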

Additional observations from a re-analysis of the deposited data

How the results depend on the processing

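With the replicate block limma called 210 probe sets between genotypes and 1 gene of the related lists, and with no replicate block 0 and 0. Over all probe sets, 210 became 76 with a pseudocount of 1, 18 with no filter, 21 with no intensity trend and 373 with median centring. For the related lists, 1 became 0 with a pseudocount of 1, no filter or no intensity trend, and 2 (AT1G03020 in addition) with a pseudocount of 100, quantile normalization or median centring. With 1 array left out and no block, both counts ranged from 0 to 0. The log2 difference of AT1G06830 was then -0.015 without AAF-OX replicate 2 and at most 1.34.

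Between sets, 2 to 3 cluster genes were called under the 8 settings that keep all arrays, and 0 to 3 with 1 array left out. AT4G15680 lost its call with no filter (adjusted p = 0.115) and with no genotype term (adjusted p = 0.338), and was not tested at a mean of at least 250. AT4G15660 and AT4G15690 passed in all 8. With 1 array left out, the set difference of AT4G15680 ranged from -0.16 to 1.72 and that of AT4G15700 from -0.10 to 0.62, with -0.05 without Col-0 replicate 1. The untested genotype differences of the cluster genes kept their direction under both other pseudocounts, quantile normalization and median centring, at 1.08 to 1.61 for AT4G15680 and 0.60 to 0.76 for AT4G15700. The cause of these changes was not tested, other than that leaving out 1 array mixes set and genotype differences. The Col-0 values of AT4G15680 are the lowest of the cluster's, and the part of dim signal in its lost calls was not tested.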

Other observations

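The CPYC glutaredoxins, a class named for a dithiol active site, had 5 tested genes. Whether each of the 5 encodes that site was not examined here. Of the 5, 4 were called lower in set 2 (limma with genotype in the model), where 22.0% of all tested probe sets were called lower. GRXC1 differed by a log2 of -1.16 ± 0.12 (SE; adjusted p = 2.27e-05), AT1G77370 by -0.94 ± 0.12 (adjusted p = 0.00011), AT2G20270 by -0.50 ± 0.12 (adjusted p = 0.00659) and GRXC2 by -0.36 ± 0.11 (adjusted p = 0.0208). AT5G20500 had -0.24 ± 0.11 and did not pass (adjusted p = 0.0962). Between genotypes none of the 5 was called by limma with the sets as a block, and GRXC1 had the largest difference (0.44 ± 0.12, adjusted p = 0.125, unadjusted p = 0.00413, the only one of the 5 with an unadjusted p under 0.05). GrxC5 and the 4 CGFS genes on the list had no named probe set and were not analysed here.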
